A study of Mus musculus with 69 samples.

Results

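The genes described are the 8 voltage-gated calcium channel alpha subunits Cacna1a, Cacna1b, Cacna1c, Cacna1d, Cacna1e, Cacna1g, Cacna1h and Cacna1i. They were chosen by symbol, as the rows of the count table whose Ensembl identifier maps to these names, and they are 8 of the 17634 genes measured. The study sequenced mRNA bound to HA-tagged ribosomes (RiboTag) from V1, primary visual cortex, and S1, primary somatosensory cortex, of mice aged 70 to 100 days. All animals carried the HA-tagged Rpl22 allele (Rpl22HA/HA) with a Cre driver, so the controls carried the tag and Cre as well. PV-Cre tags ribosomes of parvalbumin (PV) interneurons, the fast-spiking inhibitory cells of cortex, and Camk2a-Cre tags mainly excitatory pyramidal neurons. Mice were WT or Fmr1 KO, which lack the RNA-binding protein FMRP. There were 10 PV libraries per genotype and area. For Camk2a there were 8 WT libraries in V1 and 8 in S1, and 6 KO libraries in V1 and 7 in S1. The 69 libraries came from 37 animals, of which 32 gave both areas.

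An alpha subunit forms the pore and the voltage sensor of a calcium channel, and each gene gives the channel its kinetics and pharmacology. Cacna1a (P/Q-type), Cacna1b (N-type) and Cacna1e (R-type) encode high-voltage-activated channels of nerve terminals, and P/Q-type channels drive transmitter release from PV interneurons. Cacna1c and Cacna1d encode the L-type channels Cav1.2 and Cav1.3 of cell bodies and dendrites, which link activity to gene expression. Cacna1g, Cacna1h and Cacna1i encode the low-voltage-activated T-type channels Cav3.1, Cav3.2 and Cav3.3, which open near the resting potential and support burst firing.

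Sequencing depth per library was 27.64 M to 49.11 M estimated counts (M, mega), median 38.77 M, and a member's count in a library ranged from 159 to 17223. Fmr1 was at most 14.7 CPM (counts per M counts of the library) in KO libraries and at least 35.9 CPM in WT libraries. Gad1 had a median of 3222 CPM in PV WT V1 libraries against 22.2 CPM in Camk2a WT V1 libraries, and the vesicular glutamate transporter gene Slc17a7 had 222 against 2515 CPM. By a score of 1009 genes higher in V1 and 1046 genes higher in S1 in Camk2a KO animals, with the members left out, 7 libraries lay on the other side of their area label. These were the libraries labelled V1 and S1 of PV animals P22 (WT) and P9 (KO) and of Camk2a WT animal C24, and the library labelled V1 of PV KO animal P24. The library labelled S1 of C24 was also the only library of Batch 2, so no value could be had within that batch. Sex called from X- and Y-linked genes differed from the label in 6 libraries. The 6 libraries of Camk2a animals C3, C18 and C19 had Gad1 between 172 and 547 CPM, against 14.3 to 34.6 CPM in the other 23 Camk2a libraries. In bulk RNA of this kind, fewer cells of a type and less RNA per cell cannot be told apart.

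The members are long genes with coding sequences of similar length. Their longest annotated coding sequences ran from 6537 bp (Cacna1d) to 7143 bp (Cacna1g), against a median of 1416 bp over 14642 coding genes of the table, in GENCODE M21 (GRCm38/mm10). Their spans differed more, from 59.5 kb for Cacna1h (chr17:25374285-25433783, minus strand) to 609 kb for Cacna1c (chr6:118587240-119196418, minus strand). GC content of the coding sequence was 49.8% in Cacna1d and 60.0% in Cacna1h. The motif ACTG and the motif ACTT, and likewise the motif TGGA and the motif AGGA, have been linked to FMRP binding. Together they occurred 22.2 times per kb of coding sequence in Cacna1a and 27.0 times in Cacna1i, against a median of 24.8 over the coding genes.

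The 250 bases before the start site are shown for Cacna1i, 1 of the 2 members called lower in KO PV animals with both areas summed, and for Cacna1b, which was higher in Camk2a libraries of all 4 genotype and area groups. In the RefSeq promoter table (GRCm38.p6), 5 of the 8 members had an entry, and these were the 2 whose start equalled the GENCODE gene start. Capitals mark the GC box GGGCGG, searched on both strands.
Cacna1i, chr15:80286988-80287237, plus strand: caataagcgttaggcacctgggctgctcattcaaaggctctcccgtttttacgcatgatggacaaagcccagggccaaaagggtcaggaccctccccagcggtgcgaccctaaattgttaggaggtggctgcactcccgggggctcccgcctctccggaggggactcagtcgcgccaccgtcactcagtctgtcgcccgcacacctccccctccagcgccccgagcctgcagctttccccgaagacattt
Cacna1b, chr2:24763153-24763402, minus strand: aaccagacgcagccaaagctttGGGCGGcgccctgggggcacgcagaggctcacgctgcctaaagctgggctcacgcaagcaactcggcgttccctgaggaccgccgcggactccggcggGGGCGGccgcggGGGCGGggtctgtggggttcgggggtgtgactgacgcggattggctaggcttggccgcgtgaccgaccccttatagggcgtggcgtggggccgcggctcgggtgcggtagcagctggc
The Cacna1b window held 3 GC boxes and the Cacna1i window held 0, and 32.7% of 32851 windows of the same length in the table held at least 1. Neither window held the letters TGACGTCA, TATAAA or CACGTG on either strand, which 1.55%, 12.4% and 6.02% of the windows held. GC content was 62.4% in the Cacna1i window and 72.0% in the Cacna1b window, against a median of 52.4%.

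**Figure D1:**
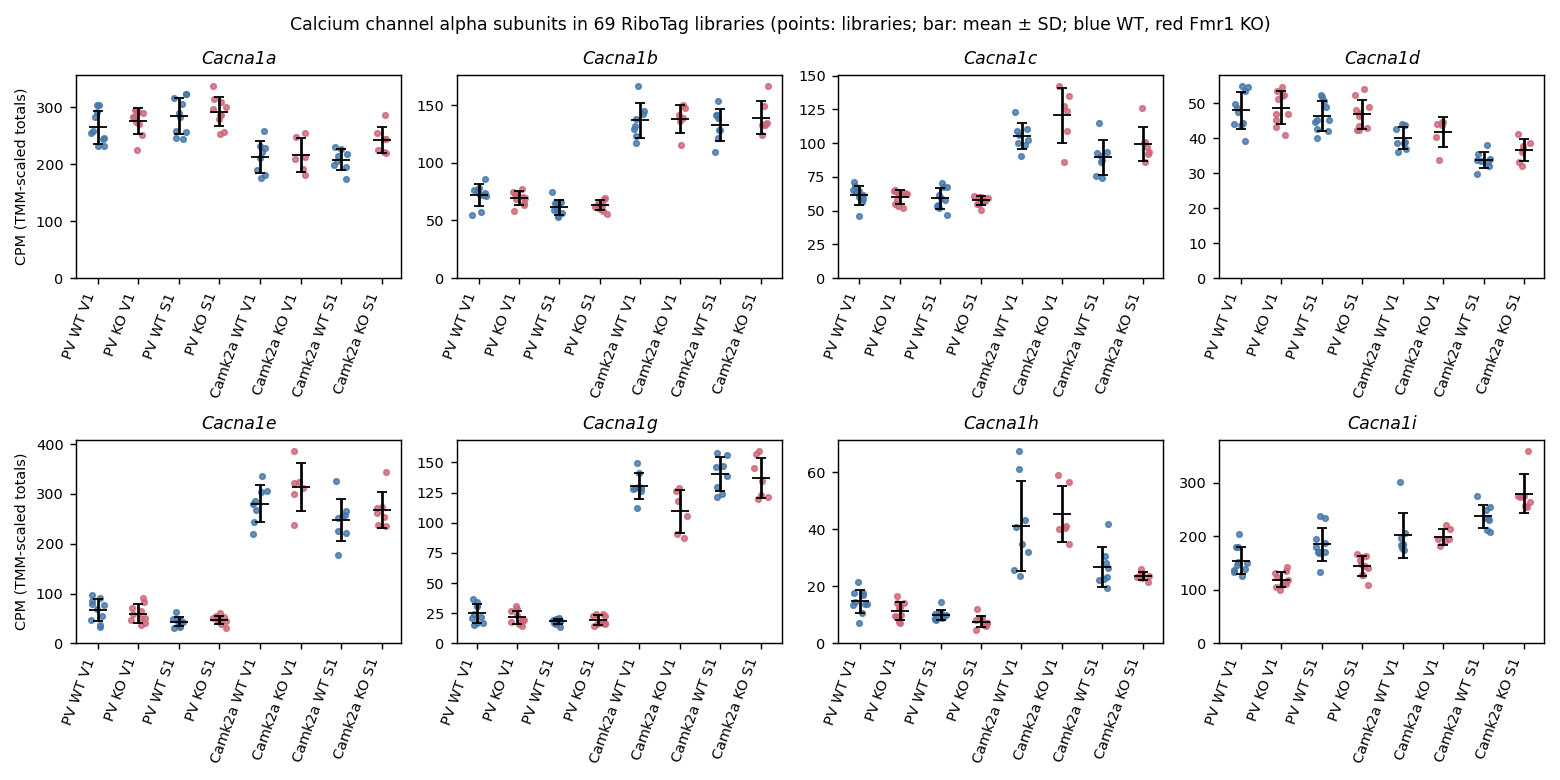
CPM of each member (vertical axis, from 0) in the 8 groups (horizontal axis), with 1 point per library and bars for the mean ± SD; blue is WT and red is KO. Cacna1e, Cacna1g and Cacna1h are low in the 4 PV groups, and Cacna1i lies lower in the KO than in the WT PV groups.

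Compared per kb of merged exons, Cacna1a and Cacna1i gave the largest parts of the alpha-subunit mRNA in both classes. Levels between genes are given as TPM (transcripts per M transcripts), computed from the counts and the merged exon length of each gene. In PV WT V1 libraries the TPM level was 91.7 ± 12.4 (SD, n = 10) for Cacna1a and 62.0 ± 11.2 for Cacna1i. Cacna1a was above Cacna1i in 10 of 10 of these libraries, although the ranges over libraries overlapped. Cacna1b followed at 28.6 ± 4.59, below Cacna1i with no overlap, and then Cacna1d at 15.0 ± 1.93. Cacna1c, Cacna1e, Cacna1g and Cacna1h lay between 11.5 and 6.01 TPM, and neighbours in that order overlapped. In Camk2a WT S1 libraries Cacna1i was the highest member at 95.4 ± 8.60 TPM (SD, n = 8), above Cacna1a at 72.5 ± 6.86 with no overlap. Cacna1g at 54.9 ± 5.07 and Cacna1b at 53.1 ± 5.93 TPM followed and could not be separated. In Camk2a WT V1 libraries Cacna1i (81.2 ± 17.2 TPM) and Cacna1a (74.0 ± 10.4 TPM) overlapped. With the longest transcript as the length, Cacna1a was above Cacna1i in all 4 Camk2a groups too, so the order of these genes there depends on the length used.

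The T-type share of the summed TPM of the 8 genes was smaller in PV than in Camk2a libraries. It was 33.0% ± 1.82 (SD, n = 10) in PV WT V1 and 42.1% ± 2.01 (n = 8) in Camk2a WT V1, with ranges of 30.8% to 37.4% and 38.6% to 45.1% that did not overlap. In S1 it was 35.4% ± 2.54 in PV WT and 45.7% ± 2.33 in Camk2a WT. In KO PV libraries the T-type share was 27.6% ± 1.59 in V1, with a highest library of 30.4% below the lowest WT library. Most of this fall lay in Cacna1i, whose mean in PV V1 was 154.7 CPM in WT and 118.9 CPM in KO. Cacna1g had 24.9 and 21.5 CPM and Cacna1h 14.7 and 11.4 CPM. The shares were not tested. In S1 the KO PV share of 30.1% ± 2.03 overlapped the WT range. Cacna1a alone made up 39.1% of the pool in PV WT V1 and 20.9% in Camk2a WT V1. The shares use the merged exon length, and with the longest transcript the T-type share in PV V1 was 27.2% in WT and 22.5% in KO.

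**Figure D2:**
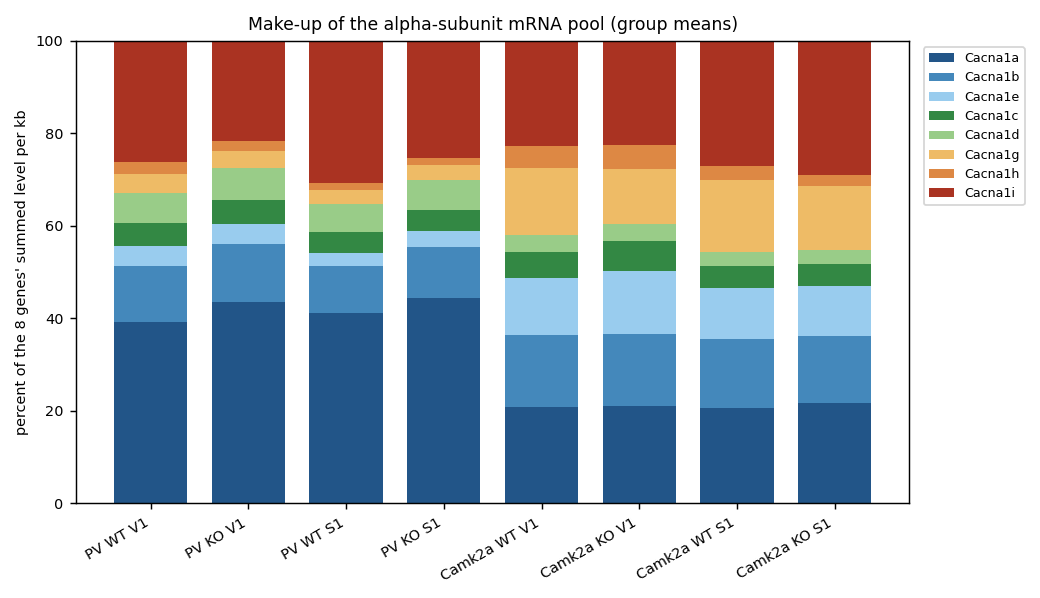
Share of each member in the summed TPM of the 8 genes (vertical axis, percent, from 0 to 100) as group means in the 8 groups (horizontal axis). Cacna1a makes up 39.1% in PV WT V1 and 20.9% in Camk2a WT V1, and Cacna1g and Cacna1e are larger parts of the Camk2a bars.

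All 8 members differed between the classes in both areas and both genotypes (edgeR quasi-likelihood test with Benjamini-Hochberg adjustment, called at an adjusted p under 0.05). Calls were common in these comparisons: 77.3% of all genes in WT V1, 77.2% in WT S1, 74.3% in KO V1 and 77.7% in KO S1 were called. The members' count of 8 of 8 is therefore read for its directions and sizes. Cacna1a and Cacna1d were higher in PV libraries and the other 6 members were lower, and the directions were the same in the 4 comparisons. Of all genes, 39.8% were higher and 37.5% lower in PV in WT V1, 39.1% and 38.1% in WT S1, 38.3% and 35.9% in KO V1, and 39.8% and 37.9% in KO S1.

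Among the high-voltage-activated members, Cacna1a ranged in WT S1 from 244 CPM through a median of 287 to 324 in PV libraries, and from 174 through 210 to 231 in Camk2a libraries. The ranges did not overlap, and the log2 difference was 0.46 (SE 0.07, adjusted p = 5e-06). In WT V1 the Cacna1a difference was 0.37 and the ranges overlapped. Cacna1b ranged in WT S1 from 52.5 through 61.7 to 74.2 CPM in PV libraries and from 110 through 134 to 154 CPM in Camk2a libraries. It was lower in PV by 1.09 on the log2 scale (SE 0.07, adjusted p = 6.74e-12) and did not overlap. Cacna1e ranged in WT S1 from 31.1 through 44.7 to 63.6 CPM in PV libraries and from 178 through 254 to 327 CPM in Camk2a libraries. All PV libraries lay below all Camk2a libraries, with a log2 difference of -2.45 (SE 0.13, adjusted p = 1.75e-12).

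The L-type members went opposite ways. Cacna1c ranged in WT V1 from 46.1 through 62.6 to 71.5 CPM in PV libraries and from 90.1 through 104 to 123 CPM in Camk2a libraries, without overlap (log2 difference -0.72, SE 0.07, adjusted p = 1.29e-08). Cacna1d ranged in WT S1 from 39.9 through 45.1 to 52.4 CPM in PV libraries and from 29.9 through 33.6 to 38.1 CPM in Camk2a libraries. It was higher in PV without overlap, with a log2 difference of 0.48 (SE 0.06, adjusted p = 4.07e-07).

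The T-type members were all lower in PV libraries, by very different amounts. Cacna1g ranged in WT S1 from 13.5 through 18.5 to 20.9 CPM in PV libraries and from 121 through 143 to 158 CPM in Camk2a libraries. Its log2 difference was -2.93 (SE 0.08, adjusted p = 2.96e-18), the largest among the members in that comparison. Cacna1h ranged in WT S1 from 8.17 through 9.60 to 14.6 CPM in PV libraries and from 19.3 through 25.0 to 41.9 CPM in Camk2a libraries, without overlap (log2 difference -1.43, SE 0.14). Cacna1i ranged in WT S1 from 134 through 176 to 237 CPM in PV libraries and from 207 through 235 to 275 CPM in Camk2a libraries. These Cacna1i ranges overlapped, and the log2 difference was -0.34 (SE 0.09, adjusted p = 0.00197). In KO animals the ranges of Cacna1i did not overlap between classes, with log2 differences of -0.73 in V1 and -0.96 in S1.

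**Figure D3:**
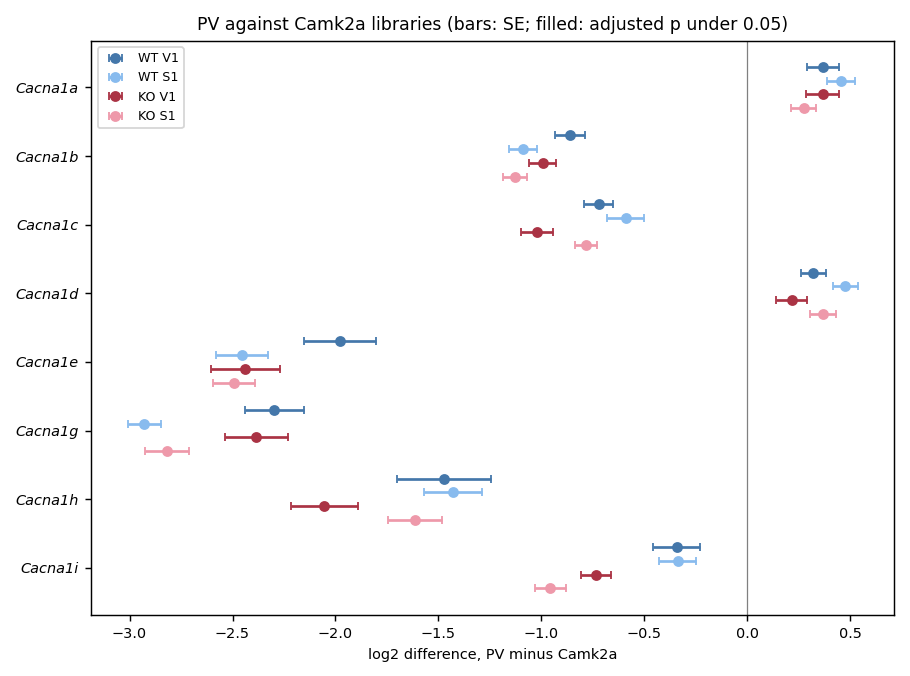
Log2 difference of each member between PV and Camk2a libraries (horizontal axis, PV minus Camk2a) in the 4 genotype and area groups; points are edgeR estimates, bars are SE and filled points passed the threshold. Cacna1a and Cacna1d lie right of 0, Cacna1g and Cacna1e lie farthest left, and the KO points of Cacna1i lie left of its WT points.

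RNA of excitatory marker genes was present in the PV libraries. The 14 excitatory markers had a median of 8.88% of their Camk2a level in PV WT V1 libraries, from 5.35% (Tbr1) to 53.6% (Cux2), and a median of 6.87% in WT S1. Their summed level in PV WT S1 libraries ran from 1325 to 1646 CPM, against 13550 to 16100 CPM in Camk2a WT S1 libraries, and none of the 14 was at 0. Measured the same way, Cacna1g stood at 19% in V1 and 13.0% in S1, Cacna1e at 23.9% and 17.7%, and Cacna1h at 35.8% and 37.1%. Whether the marker RNA came from excitatory cells or from PV cells was not tested. The part of RNA from excitatory cells in the PV values of these members was not tested either.

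The channel's partner genes were compared between the classes in the same way. Their counts of calls stand beside 77.3% of all genes called in WT V1, 39.8% higher and 37.5% lower, and are read for directions and sizes. Of 8 auxiliary alpha2delta and beta subunits, which set the surface level and gating of the pore, 1 was higher and 7 were lower in PV WT V1 libraries, with a median log2 difference of -1.76 against 0.03 over all genes tested. Cacna2d2 was the one higher in PV (log2 difference 4.08, SE 0.32), and Cacna2d1 (-3.74, SE 0.15) and Cacnb3 (-2.21, SE 0.06) were among those lower. Of 16 presynaptic release-site genes, 3 were higher and 10 lower in WT V1. Syt2, the fast calcium sensor of release and itself a PV marker, was higher by 4.19 (SE 0.35), and the syntaxin gene Stx1a was lower, with a log2 difference of -3.42 (SE 0.14). Of 14 measured channel regulators, 6 were higher, among them the L-type channel adaptor gene Stac2 (1.41, SE 0.10), and 8 were lower, among them the kinase-anchoring protein gene Akap5 (-1.15, SE 0.10). Of 6 tested calcium-activated potassium channel genes, which read the calcium that these channels admit, Kcnmb2 was higher (4.79, SE 0.64) and 5 were lower, Kcnmb4 among them (-1.60, SE 0.07).

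Loss of Fmr1 went with lower Cacna1i in PV neurons. In animals with the libraries of both areas summed, Cacna1i ranged from 150 through a median of 160 to 205 CPM in 10 WT animals and from 114 through 135 to 145 CPM in 9 KO animals. No KO animal reached the lowest WT animal. The means were 167 ± 20.7 and 132 ± 8.78 CPM (SD), and the log2 difference of -0.34 (SE 0.06, 95% interval -0.46 to -0.22) had an adjusted p of 0.00415. Cacna1i and Cacna1h were called, 2 of the 8 members, where 1.36% of all genes tested were called and 1.05% were called lower. Cacna1i was called under all 7 alternatives, with adjusted p from 3.77e-05 to 0.0268, and with each animal left out.

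Cacna1h, the scarcest T-type member in PV libraries, ranged from 10.5 through 11.9 to 15.2 CPM in WT animals and from 7.25 through 9.92 to 12.4 CPM in KO animals. The ranges overlapped, and 8 of 9 KO animals lay below the WT mean. Its log2 difference was -0.35 (SE 0.09, adjusted p = 0.0476). The call was lost under 4 of 7 alternatives, including the fit without P9, P22 and P24 (adjusted p = 0.11), and when any of 15 of the 19 animals was left out. Cacna1g, the remaining T-type member, had a log2 difference of -0.02 with a 95% interval of -0.25 to 0.20. The 5 high-voltage-activated and L-type members had log2 differences between -0.02 and 0.05 and were not called. Their widest interval was that of Cacna1e, from -0.26 to 0.30.

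Within each area, 0 of 8 members was called in PV libraries by edgeR, where 0.191% of all genes were called in V1 and 0.77% in S1. At an unadjusted p under 0.05 the count was 2 of 8 in each area, where 7.82% of all genes passed in V1 and 12.3% in S1. In V1, Cacna1i ranged from 125 through 148 to 205 CPM in WT and from 100.3 through 115 to 143 CPM in KO libraries. All 10 KO libraries lay below the WT mean, the ranges overlapped, and the log2 difference was -0.37 (SE 0.08, adjusted p = 0.0623). In S1 it ranged from 134 through 176 to 237 CPM in WT and from 109 through 146 to 167 CPM in KO libraries. Again all 10 KO libraries lay below the WT mean, with a log2 difference of -0.34 (SE 0.09, adjusted p = 0.0878). DESeq2 called Cacna1i in both areas, with adjusted p of 0.00611 and 0.0123, and limma-voom called 0 of 8 in both. Of all genes, DESeq2 called 113 in V1 and 308 in S1, and limma-voom called 31 and 133. The WT maximum in V1 and the WT minimum in S1 were the libraries of P22, which lay on the other side of their area labels. The KO maximum in V1 and the KO minimum in S1 were those of P9, which also lay against their labels. Without P9, P22 and P24 the adjusted p was 0.0273 in V1 and 0.0513 in S1. These animals were left out by a score of area genes and held extremes of Cacna1i, so these fits are not independent of its spread. The per-area and summed comparisons use the same libraries and are not independent of each other.

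**Figure D4:**
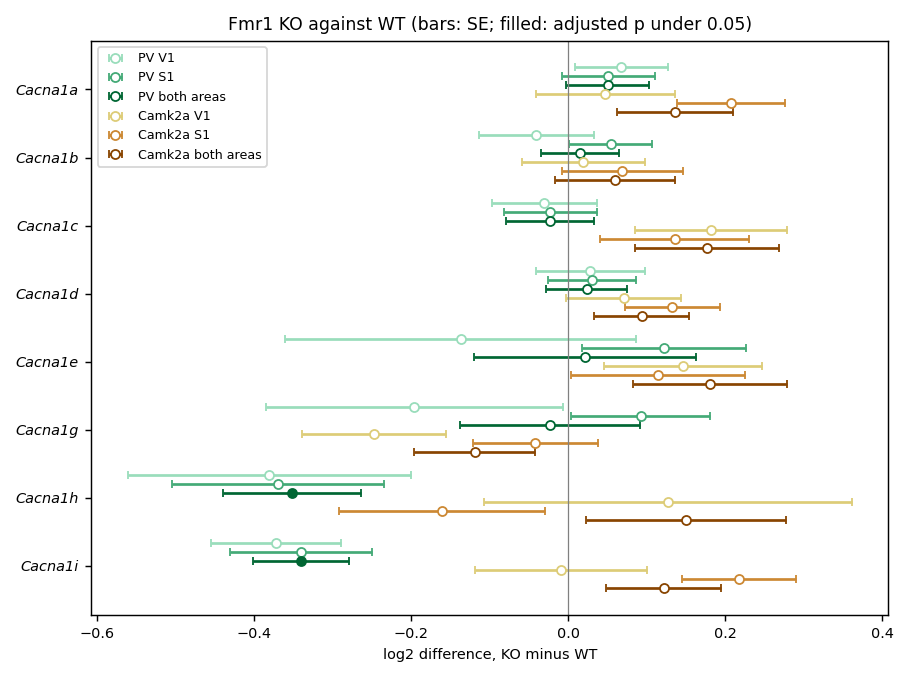
Log2 difference between KO and WT (horizontal axis, KO minus WT) for each member in PV and Camk2a libraries, by area and with both areas summed per animal; points are edgeR estimates, bars are SE and filled points passed the threshold. The only filled points are Cacna1h and Cacna1i in summed PV animals.

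Marker levels of the tagged and of other cells were compared in the same summed PV animals. Of the 14 excitatory markers 0 were called, with a median log2 difference of 0.04. Of the 14 PV markers 2 were lower and 0 higher, where 1.36% of all genes tested were called and 1.05% were called lower. The part of PV-marker RNA in the Cacna1i difference was not tested. The marker lists of other interneurons, astrocytes, oligodendrocytes and their precursors, microglia and vascular cells also had 0 calls. None of the 8 auxiliary subunits, 16 release-site genes, 14 regulators or 6 calcium-activated potassium channel genes was called in these animals.

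In Camk2a neurons 0 of 8 members was called between KO and WT in V1, in S1 or in the summed animals by edgeR, where 1.4%, 4.09% and 4.11% of all genes were called. DESeq2 and limma-voom also called 0 of 8 in each. At an unadjusted p under 0.05 the counts were 1, 3 and 0 of 8, where 18.2%, 21.9% and 23% of all genes passed. In summed Camk2a animals Cacna1i ranged from 194 through 220 to 268 CPM in 7 WT animals and from 227 through 237 to 282 CPM in 6 KO animals. All 6 KO animals lay above the WT mean, the ranges overlapped, and the log2 difference was 0.12 with a 95% interval of -0.02 to 0.27. In S1 Cacna1i (0.22, SE 0.07, adjusted p = 0.0939) and Cacna1a (0.21, SE 0.07, adjusted p = 0.0922) were above the WT mean in 7 of 7 KO libraries without passing. Cacna1g in V1 was below the WT mean in 6 of 6 KO libraries, with a log2 difference of -0.25 (SE 0.09, adjusted p = 0.17). Among the partners in summed Camk2a animals, the beta subunit gene Cacnb3 (-0.22, SE 0.06, adjusted p = 0.0386) and Kcnmb4 (-0.27, SE 0.06, adjusted p = 0.0306) were lower. The release-site scaffold gene Pclo was higher (0.43, SE 0.11, adjusted p = 0.0444). In the same summed animals 0 of the 14 PV markers was called, and 13 had a negative log2 difference, with a median of -0.99. By area, the astrocyte marker Aldoc (-0.84 in S1, -0.78 in V1) and the vascular marker Tagln (-1.32, -2.21) were called lower. The oligodendrocyte marker Mbp (-0.44) was called lower in S1, and the astrocyte marker Aldh1l1 (-0.46) and PV marker Cplx1 (-0.52) in V1. No marker was called higher in either area. The high PV-marker levels lay in animals C18 and C19 (WT) and C3 (KO). The part of PV-marker RNA in the Camk2a values was not tested.

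The genotype difference of Cacna1i itself differed between the classes. The Camk2a difference minus the PV difference was 0.58 in S1 (SE 0.13, 95% interval 0.34 to 0.83, adjusted p = 0.0238), the only member called where 0.84% of all genes were. In summed animals it was 0.46 (SE 0.10, adjusted p = 0.0165), again the only member called, where 0.832% of genes were. The S1 call held under all 10 alternatives, and the summed call was lost without the PV-marker-rich animals C3, C18 and C19 (0.42, adjusted p = 0.0521). None of these fits left out animal C4. Its library had the highest Cacna1i level of the Camk2a KO S1 group, at 358.5 CPM with 275.9 CPM next, so its weight in the difference was not tested. In V1 the difference was 0.35 (SE 0.14, adjusted p = 0.405). There 0 of 8 members was called by edgeR, DESeq2 and limma-voom, and edgeR called 0.0924% of all genes. At an unadjusted p under 0.05 the V1 count was 1 of 8, where 8.88% of all genes passed. Without the 4 animals P9, P22, P24 and C24 the V1 difference was 0.47 (adjusted p = 0.0408). These animals were picked by a score of area genes after seeing the data, and Cacna1i itself differed between areas. P22, P9 and C24 held the highest Cacna1i values of their V1 groups, so this fit is not independent support for the difference. Cacna1h had a summed difference of 0.50 (SE 0.16) that did not pass (adjusted p = 0.152).

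The genotype difference was also compared between the areas. Of all genes, 0 were called by edgeR in either class (0%), and 0 of 8 members had an unadjusted p under 0.05. Over all genes, 312 in PV and 608 in Camk2a had an unadjusted p under 0.05, and DESeq2 called 0 and 1 genes. For Cacna1i in PV the S1 minus V1 difference was 0.03 with a 95% interval of -0.22 to 0.27.

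Between the areas, Cacna1i was lower in V1 than in S1 in nearly every animal. The V1 library was the lower one in 9 of 10 PV WT, 8 of 9 PV KO, 6 of 7 Camk2a WT and 6 of 6 Camk2a KO animals. The 3 exceptions were P22, P9 and C24, whose libraries lay against their area labels. Among Camk2a KO libraries, Cacna1i ranged from 181 through 195 to 220 CPM in V1 and from 256 through 274 to 359 CPM in S1. These ranges did not overlap, and the log2 difference was -0.48 (SE 0.08, adjusted p = 0.000591). In PV KO libraries the difference was -0.28 (SE 0.07, adjusted p = 0.0326), and it was lost with the animal as a block (adjusted p = 0.0799). In PV WT libraries the difference of -0.25 did not pass (adjusted p = 0.0594) and passed with the block (adjusted p = 0.0462). In Camk2a WT libraries it was -0.24 (adjusted p = 0.176). Without C24 it was -0.36 (adjusted p = 0.000374), and without P22 and with the block the PV WT difference was -0.35 (adjusted p = 1.24e-06). Animals were left out by a score of area genes, so these fits are not independent of the comparison of areas.

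**Figure D5:**
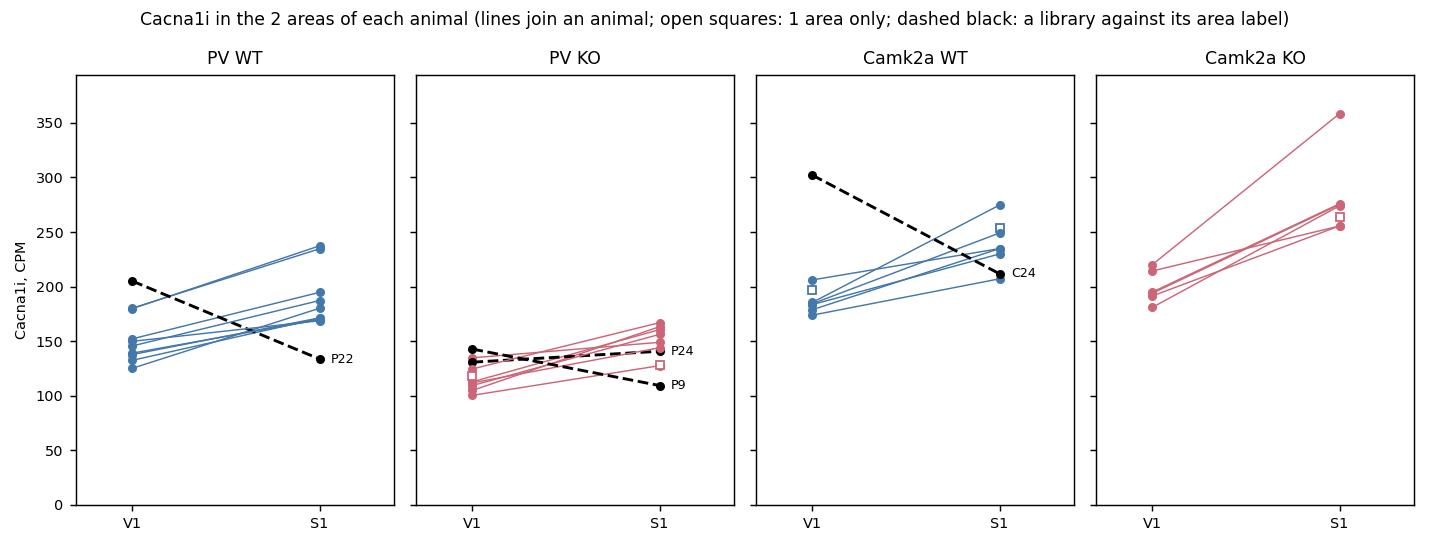
Cacna1i in CPM (vertical axis, from 0) in V1 and S1 (horizontal axis) for each class and genotype; lines join the libraries of an animal and open squares are animals with 1 area. Dashed black lines mark the animals with a library against its area label, and P22, P9 and C24 are the only lines that fall from V1 to S1.

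Cacna1h went the other way. Among Camk2a KO libraries it ranged from 34.8 through 40.9 to 59.1 CPM in V1 and from 21.5 through 23.6 to 26.2 CPM in S1. All V1 libraries lay above all S1 libraries, with a log2 difference of 0.95 (SE 0.11, adjusted p = 5.74e-05). Cacna1c was also higher in V1 in these animals (0.30, SE 0.09, adjusted p = 0.0346), with overlap, and the call was lost without C3, C18 and C19 (adjusted p = 0.0911) and with no sex term (adjusted p = 0.0992). Thus 3 of 8 members were called in Camk2a KO without the block, where 13.1% of all genes were called. With the animal as a block 7 of 8 were called. The share of all genes called in the block fit is not given here, so its count is not read as particular to the members. The block added Cacna1d (0.20) and Cacna1e (0.20), higher in V1, and Cacna1a (-0.19) and Cacna1g (-0.33), lower in V1. Without the block, the excitatory markers Fezf2 (0.85) and Neurod6 (0.40) were called higher in V1 in Camk2a KO libraries. Rorb (-0.97), Foxp2 (-0.55) and Nrgn (-0.30) were called lower, and the other excitatory markers were not called. The part of cell make-up in the members' area differences was not tested. In Camk2a WT 0 of 8 was called by edgeR, where 0.359% of all genes were called. DESeq2 and limma-voom each called 1 of 8, and they called 1371 and 424 of all genes. At an unadjusted p under 0.05 in edgeR the count was 4 of 8, where 22.8% of all genes passed. Without C24, 4 of 8 were called: Cacna1c (0.29), Cacna1d (0.29) and Cacna1h (0.82) higher and Cacna1i lower. The share of all genes called without C24 is not given here either.

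In PV WT libraries 4 of 8 members were called, all higher in V1, where 20.6% of all genes were called and 10.7% were called higher. They were Cacna1b (0.23, SE 0.07), Cacna1e (0.59, SE 0.16), Cacna1g (0.44, SE 0.13) and Cacna1h (0.57, SE 0.15), and the V1 and S1 ranges of each overlapped. Cacna1e ranged from 33.1 through 72.3 to 97.9 CPM in V1 and from 31.1 through 44.7 to 63.6 CPM in S1. With the animal as a block, Cacna1h did not pass (adjusted p = 0.058). In the same comparison 7 of the 14 excitatory markers were called higher in V1 and none lower, with a median log2 difference of 0.29, and their summed level was 1354 to 2512 CPM in V1 and 1325 to 1646 CPM in S1. Of the 9 astrocyte markers 6 were called higher and 1 lower in V1, and of the 5 markers of oligodendrocyte precursors 4 were higher and 0 lower. Of the 14 PV markers 2 were called higher and 7 lower in V1, with a median log2 difference of -0.17. The part of RNA from other cells in the 4 differences was not tested. In PV KO libraries 1 of 8 was called, Cacna1i, where 7.56% of all genes were called, and 0 of 8 with the block.

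For each member, the genes with the most similar pattern over the 8 group means were found among 10670 genes with a mean of at least 5 CPM, by the root mean square distance of centred log2(CPM + 1) values. For Cacna1i these were Mtus1 (distance 0.11) and Rnf152 (0.12), and for Cacna1h Timp2 (0.11) and Nrp2 (0.13). The nearest genes were closer for Cacna1b, with Celf2 at 0.02, and for Cacna1a, with Phf20 at 0.03. Cacna1c was nearest to Snd1 (0.04), Cacna1d to Pcdh10 (0.04), Cacna1e to Fads3 (0.05) and Cacna1g to Hs3st4 (0.06).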

How the data were processed

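The 69 libraries were RiboTag immunoprecipitates. Values were estimated counts per gene as deposited by the authors, with no normalization, and 71.1% of them were not whole. The submitters' processing notes name STAR, Salmon, limma and mm10; what each did, its version and the gene models used are not given in the sources used here. Per the labels' protocols, reads were paired-end of 100 bases from amplified cDNA, and tissue passed a RIN minimum of 7. Whether counting used strand is not stated there.

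Counts were rounded, filtered with filterByExpr, scaled with TMM and fitted with edgeR 4.0.16 (R 4.3.3; robust quasi-likelihood, sex as covariate, Benjamini-Hochberg over all genes tested, called under 0.05). All 8 members passed the filter in every comparison. Intervals are the estimate ± 1.96 SE. CPM use TMM-scaled totals over all libraries or summed animals. V1 and S1 libraries of an animal pair by the animal code in the labels. The median correlation of their deviations from group means was 0.18 to 0.55 over the 4 class and genotype sets. The lowest was -0.23 in PV WT and -0.10 in PV KO. An animal's own S1 library was the best match of its V1 library in 5 of 10 PV WT and 3 of 9 PV KO animals. In Camk2a this held in 5 of 7 WT and 6 of 6 KO animals. Alternatives were RLE factors, no filter, DESeq2 1.42.0, limma-voom (limma 3.58.1), no sex term, animals left out and the animal as a block. The edgeR, DESeq2 and limma-voom fits were tried on simulated counts for KO against WT in PV V1 only. Named genes were all members, up to 3 called partners per list and direction with the smallest p, and the 2 nearest patterns per member, of which the text gives some. Members, lists and left-out animals were chosen with earlier results of these data known. Leaving out P9, P22, P24 and C24 together, C24 in Camk2a V1, the block without them and sex from X- and Y-linked genes were added after seeing the data.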

Additional observations from a re-analysis of the deposited data

Results flagged for a closer look

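Of 64 member and group combinations, 6 had a library far from the others of its group, where chance gives about 1 in 20. Animal C4 had the highest level among Camk2a KO S1 libraries for Cacna1c (125.6 CPM, next 100.4), Cacna1e (343.6 CPM, next 272.9) and Cacna1i (358.5 CPM, next 275.9). Cacna1e was 63.58 CPM in the PV WT S1 library of P18, next to 48.4. Cacna1h was 14.61 CPM in the library labelled S1 of PV WT animal P22, next to 10.67, and Cacna1i was 302.1 CPM in the library labelled V1 of Camk2a WT animal C24, next to 206.1. Both of these libraries lay on the other side of their area label.

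The genotype difference of Cacna1i differed between the classes, with a Camk2a minus PV value of 0.58 in S1 (0.5843 before rounding) and 0.46 in summed animals (0.4586), both by the interaction term of the edgeR fit.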

How the results depend on the processing

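Over the alternatives and left-out animals run, no member's log2 difference that was called changed sign, and 2354 of the single values kept their side of the threshold, 38 gained a call and 24 lost one. In V1 of PV animals KO against WT, 1 member was called by DESeq2 and without P9, P22 and P24, and 0 to 1 with 1 library left out (1 without P9 or P21); in S1, 1 by DESeq2 and 0 to 1 (1 without P22). In summed PV animals 1 was called with RLE factors, with no filter, with no sex term and without P9, P22 and P24, and 1 to 2 with 1 animal left out. The class difference of the genotype effect gave 1 in V1 without P9, P22, P24 and C24, and 0 in summed animals without C3, C18 and C19. Between areas, Camk2a WT gave 1 by DESeq2, limma-voom, no sex term and sex from X- and Y-linked genes, 4 without C24 and 5 with the replicate block without C24. PV KO gave 2 by DESeq2, no sex term and sex from X- and Y-linked genes, 3 without P9, P22 and P24, 0 with the replicate block and 3 with the block without P9 and P24. Camk2a KO gave 7 with the replicate block. For fits with animals left out or with the block, the share of all genes called is not given here. Counts of calls with the block stayed within 1.5 times in PV WT. In all 36 fits of the WT class comparisons with 1 library left out, 8 of 8 members were called. With the longest transcript as length, 40 of 64 shares moved by more than 1 SD. Leaving out C24 could not be run where a comparison held no C24 library. The lowest count of a member in a library was 159.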

Other observations

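Some animals stood at the end of their group for many members. Among Camk2a KO V1 libraries, C6 was the lowest for 7 of 8 members, and among Camk2a KO S1 libraries C4 was the highest for 6 of 8. Among Camk2a WT S1 libraries, C18 was the lowest and C24 the highest for 5 of 8 each. The spread within a group differed between members. The coefficient of variation of CPM was 38.5% for Cacna1h in Camk2a WT V1 and 34.0% for Cacna1e in PV WT V1, against 5.75% for Cacna1c in PV KO S1.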
